A study of Mus musculus with 15 samples.

Results

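Crebzf, a gene on mouse chromosome 7, had 163 of the 36353 listings of a promoter with a restriction fragment in a promoter-capture Hi-C study of hippocampal neurons, and they are described here. The members are the listings under the gene's name in the table of interaction scores. The gene was chosen by the number of its listings over the 15 libraries. This number and its excess in a single library are thus given as a description, with no test. Where the listed fragments lie is described too, and only their distance from their overall median position was compared between groups by a test. In promoter-capture Hi-C, DNA fragments that lie close together in the nucleus are joined and sequenced, and pieces joined to chosen promoters are enriched with RNA baits. The score given here is the authors' interaction score of a HindIII fragment in a library, a whole number of 2 or more, with positions on genome build mm9.

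The 15 libraries came from nuclei sorted with antibodies to the neuronal protein NeuN and to the fluorescent label. All groups share the mouse line, in which a Cre recombinase driven by the Arc promoter and active with 4-hydroxytamoxifen switches on a yellow fluorescent protein from R26R (ArcCreERT2 x R26R-STOP-floxed eYFP, genotype label +/+). There are 3 Basal libraries, and 4 for each of Early, Late and Reactivated. Per the protocol, tamoxifen preceded contextual fear conditioning by 1 h, and brains were collected either 1.5 to 2 h later or after 5 days, with or without re-exposure in the second case. The groups follow the sample titles. The treatment labels go against them: they give a collection day that goes up by 1 with each sample, 0 for the first Basal library to 14 for the last Reactivated library, and name no recall for any sample, Reactivated included. They were not used, and what sets Reactivated apart from Late is known only from the titles and the protocol. Which interval each group had, the treatment of Basal mice and the age of the mice are not given, and each condition's 10000 nuclei came from hippocampi pooled over 10 to 12 mice. The label marks cells by Arc promoter activity alone, and contact data hold no marker expression with which to check the sorted cell type.

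Libraries held between 35 and 12133 listings, and Reactivated libraries 1 and 2 were the smallest with 35 and 388. Libraries 1 and 2 of Basal, of Late and of Reactivated, and libraries 3 and 4 of Early, of Late and of Reactivated, were close to each other. Within these 6 pairs, 60% to 100% of the Crebzf fragments of the library with fewer were scored in its partner, whereas in the other 15 pairs within a group 0% to 40% were. The sets were formed on all fragments of the table, not on those of Crebzf. Of all fragments of the smaller library, 48.3% to 100% were shared in the 6 pairs and 7.71% to 16.7% in the other 15. By these shares the 15 libraries form 9 sets. The design calls the replicates biological but does not say whether the libraries of a pair came from separate pools of mice, so a p over libraries measures only the spread between these libraries, some of which are alike.

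Crebzf encodes a basic leucine zipper protein of the CREB/ATF family, also known as Zhangfei or SMILE. Proteins of this family pair through the zipper and bind short DNA elements, and CREB itself is known for its part in long-term memory in the hippocampus. The Crebzf protein is known to bind the host cell factor HCFC1 and the factors CREB3 and ATF4, and to act as a corepressor of nuclear receptors. A promoter whose contacts are captured usually meets many fragments close by and few far away on the same chromosome.

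The promoter window of Crebzf from RefSeq (GRCm38.p6) is shown because all contacts described are counted for this promoter. It spans 250 bases before to 50 bases after the gene start, at chr7:90442531-90442830 on the plus strand. Capitals mark the only matches, on either strand, to TGACG, the half-site of the CREB element, and to GGGCGG, a GC box.

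Crebzf: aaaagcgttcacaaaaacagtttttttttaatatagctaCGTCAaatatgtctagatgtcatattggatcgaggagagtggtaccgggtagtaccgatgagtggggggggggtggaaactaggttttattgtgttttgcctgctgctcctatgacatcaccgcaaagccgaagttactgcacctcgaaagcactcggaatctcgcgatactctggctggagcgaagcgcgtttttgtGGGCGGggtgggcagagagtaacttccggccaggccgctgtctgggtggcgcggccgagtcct

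The half-site is in 20.8% and the GC box in 35.7% of 32851 RefSeq promoter windows of this length. The full element TGACGTCA, found in 1.79% of windows, and the HindIII site AAGCTT, found in 7.45%, have no match in the Crebzf window. The sequence has 52% G and C, with 20 CG dinucleotides. A match is a description of these letters only.

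The number of scored Crebzf fragments set Reactivated library 2 apart from all others. Reactivated library 2 scored 139 of the 163, whereas the 3 Basal libraries scored 19, 17 and 22, the 4 Early libraries 16, 5, 10 and 10, the 4 Late libraries 13, 10, 8 and 11, and Reactivated libraries 1, 3 and 4 scored 8, 8 and 10. Of the 139, 91 were scored in no other library and 48 were. Without Reactivated library 2, 72 fragments were left, still the most of any promoter, followed by 53 for Cacna2d1, which encodes a calcium channel subunit. The median over all 4429 promoters was 6.

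**Figure D1:**
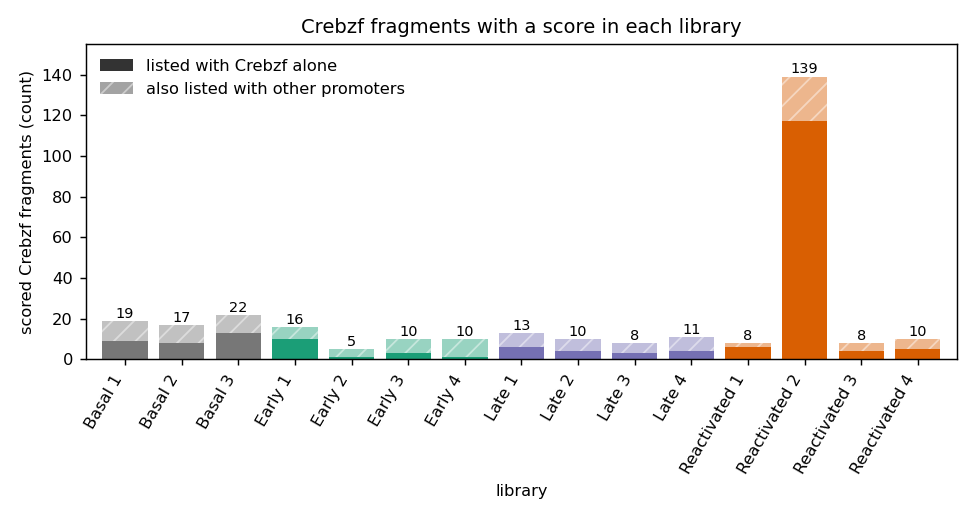
Number of Crebzf fragments with a score in each of the 15 libraries (vertical axis, count), with full bars for fragments listed with Crebzf alone and pale hatched bars for fragments also listed with other promoters. Reactivated 2 has 139 and every other library between 5 and 22.

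Basal libraries had more scored Crebzf fragments than Early, Late or the remaining Reactivated libraries, as a description. The number averaged 19.3 ± 2.52 in Basal libraries (SD, n = 3), 10.2 ± 4.5 in those of Early, 10.5 ± 2.08 in those of Late and 41.2 ± 65.2 in those of Reactivated (SD, n = 4 each). Without library 2, the Reactivated mean was 8.67 ± 1.15 (SD, n = 3). The lowest Basal library, with 17, lay above the highest of the other groups but Reactivated library 2. The order of Early, Late and the other Reactivated libraries was within their spread. As a share of all listings of a library, Crebzf took 0.416%, 0.419% and 0.364% in Basal, 0.15% to 0.292% in Early, 0.0973% to 0.378% in Late, 22.9% and 35.8% in Reactivated libraries 1 and 2, and 0.0691% and 0.0824% in Reactivated libraries 3 and 4. Crebzf had the most scored fragments of any promoter in 7 libraries (the 3 Basal libraries, Late 1 and 2 and Reactivated 1 and 2, level with others in Late 2), and it was at rank 132 in Reactivated library 3.

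The scores that make up the excess were low. In Reactivated library 2 the Crebzf scores ran from 3 to 42 with a median of 4, and 97 of the 139 were 3 or 4. The 196 fragments that this library scored without Crebzf had a median score of 106, from 2 to 1474. They were spread over 226 promoters, counting fragments that are listed with Crebzf too, of which 206 had a single fragment and none more than 3; those with 3 were Myo5c, a myosin motor gene, Ndnl2 and Ppp1r12c, a myosin phosphatase subunit gene. On chromosome 7, 51 other promoters had a fragment in this library. Crebzf alone made up 41.5% of the 335 distinct fragments of Reactivated library 2. Among its Crebzf fragments 34.5% were also scored in another library, against 56.6% of its fragments without Crebzf.

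Reactivated library 1, the smallest, held the same contacts at a lower score. Each of its 8 Crebzf fragments was also scored in Reactivated library 2, where they were among the 13 highest Crebzf scores. The score in library 2 was 2.4 to 5.5 times that in library 1, with a median of 3.67. The highest was the fragment on chromosome 7 from 125268248 to 125270587, with 10 in Reactivated library 1 and 42 in Reactivated library 2 and no score in the other 13 libraries. Reactivated libraries 3 and 4 scored none and 1 of the 139 fragments of library 2. That is 0% and 10% of the Crebzf fragments of libraries 3 and 4. Of all 335 distinct fragments of library 2, those of Crebzf included, 13.7% and 14.0% were scored in libraries 3 and 4. The 2 library sets of this group thus had a low overlap over the table as well.

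The listed fragments lay along the whole of chromosome 7, and none on another chromosome. The first started at 3619108 and the last ended at 152398067, against 3284391 and 152398067 for all fragments listed on this chromosome. Neighbouring midpoints were 0.407 Mb apart in the median, and the widest gap was 7.87 Mb, after the fragment that ends at 38663752. In steps of 25 Mb from the chromosome's start, Reactivated library 2 had 9.35%, 11.5%, 21.6%, 15.1%, 15.8%, 23% and 3.6% of its Crebzf fragments. The other promoters' 14.3%, 13.6%, 17.6%, 11.1%, 16.4%, 25.1% and 1.98% of fragments on this chromosome ran in much the same proportions. The 72 fragments scored in other libraries had 9.72%, 16.7%, 18.1%, 15.3%, 12.5%, 25% and 2.78%.

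No position of Crebzf on mm9 is given in the sources used here, so its surroundings were taken from the nearest promoters in the table by gene order. These were Eed, a Polycomb subunit gene, and Dlg2, a postsynaptic scaffold gene, whose fragments had median positions of 96.6 Mb and 97.6 Mb. The point midway between them is 97.1 Mb. Around it, 6 of the 163 Crebzf fragments lay within 1 Mb, and 0 of the 139 scored in Reactivated library 2. The 6 include the fragment from 96611711 to 96618594, also listed with Eed. It is the fragment at the Eed median position, so its nearness follows from how the point was set. The nearest fragment of Reactivated library 2 was 1.09 Mb away, with 77 of the 139 on the lower side and 62 on the upper. This nearest fragment, from 98202532 to 98211712, is on the Dlg2 side and lay within 1 Mb of the Dlg2 median position. The count of 0 thus depends on the point taken, and where Crebzf lies between Eed and Dlg2 is not known here. The point and the distances around it were chosen after the positions were seen.

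**Figure D2:**
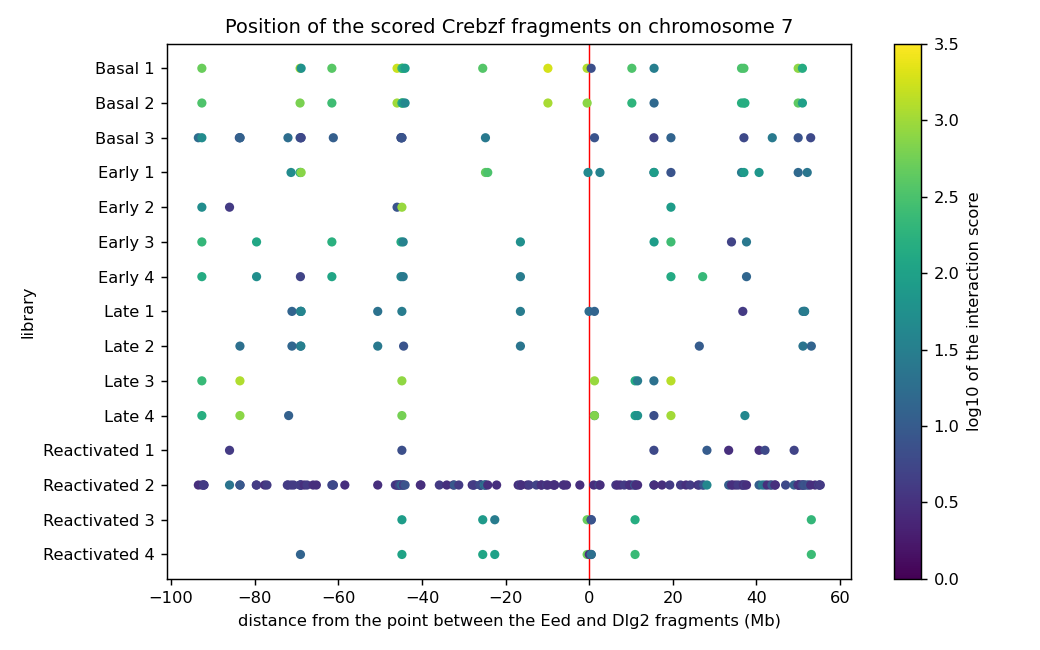
Position of each scored Crebzf fragment (points) by library (rows), as the distance in Mb from the point between the median positions of the Eed and Dlg2 fragments (red line), with colour for log10 of the score. Reactivated 2 covers the chromosome with low scores and has no point within 1 Mb of the line, while Reactivated 3 and 4 have 3 and 4 there. Among these, in both libraries, is the fragment at the Eed median position, from which the line was set.

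The Crebzf fragments within 1 Mb of the point between Eed and Dlg2 were all among those that Reactivated library 2 lacked. Of the 24 Crebzf fragments without a score in that library, 8 lay within 2 Mb of the point, and the median distance of the 24 was 21.1 Mb. The 10 of them also listed with other promoters had a median of 44.9 Mb, with 1 within 2 Mb. The 14 listed with Crebzf alone had a median of 1.91 Mb, with 7 within 2 Mb. Of the 117 fragments in Reactivated library 2 that were listed with Crebzf alone, 1 lay within 2 Mb and the median distance was 35.6 Mb. The 7 near ones listed with Crebzf alone were seldom strong. The fragment from 97574096 to 97574768 had 7 in Basal library 1 and 5 in each of Reactivated libraries 3 and 4. The fragment from 97602152 to 97607006 had 8 and 19 in Reactivated libraries 3 and 4 and no score elsewhere. Those at 96823058, 97073219 and 97129863 (starts) had a single score each, of 44 in Early library 1, 17 in Late library 1 and 3 in Reactivated library 4. A stronger one lay from 98374587 to 98376476, with 8 in Basal library 3 and 915 and 697 in Late libraries 3 and 4. Its neighbour from 98363301 to 98364971 had 13 and 12 in Late libraries 1 and 4.

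The spread of the fragments was far above that of other promoters. Promoters were compared by the median distance of their fragments from their own median position, among those with 20 or more listed fragments on a single chromosome. It was 36.5 Mb for Crebzf, against a median of 0.171 Mb and a highest value of 8.03 Mb over the other 298 promoters. The next were Slc25a31, a mitochondrial carrier gene, with 8.03 Mb, P2rx3, an ATP-gated channel gene, with 5.94 Mb, and Ttc17 with 2.35 Mb. Within 1 Mb of the median position lay 1.84% of the Crebzf fragments and 82% of those of the median promoter. Without Reactivated library 2 the share within 1 Mb was 8.33%, and the median distance was 43.9 Mb for the 72 remaining fragments and 37.9 Mb for the 44 of them listed with Crebzf alone.

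**Figure D3:**
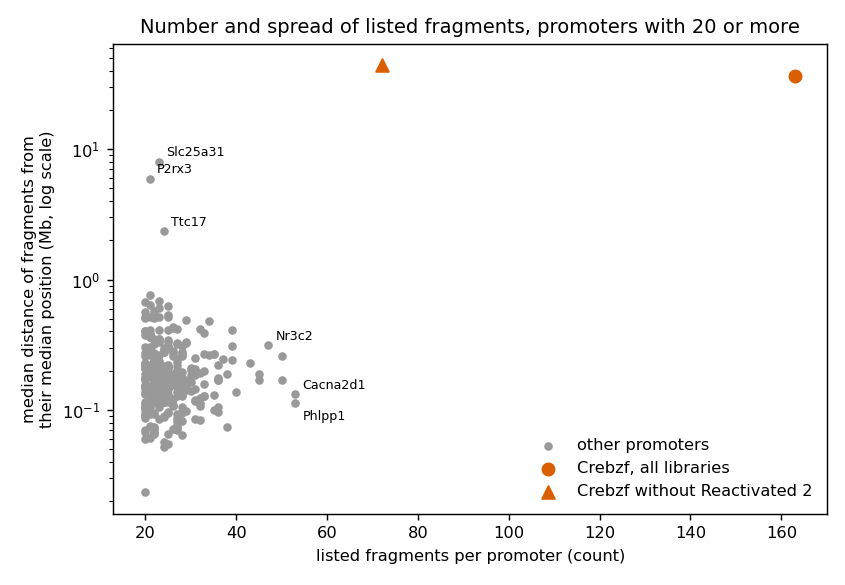
Number of listed fragments (horizontal axis, count) and median distance of the fragments from their own median position (vertical axis, Mb, log scale) for promoters with 20 or more listed fragments. Crebzf lies at 36.5 Mb with all libraries and at 43.9 Mb without Reactivated 2, above the 8.03 Mb of Slc25a31.

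The promoters nearest to Crebzf in number were compact. Cacna2d1 and Phlpp1, a phosphatase gene, had 53 listed fragments each, Rfx3 and Atxn1 had 50, and Nr3c2, the mineralocorticoid receptor gene, had 47. Their median distances were 0.132 Mb, 0.112 Mb, 0.259 Mb, 0.169 Mb and 0.313 Mb. Reactivated library 2 scored 1 fragment of Phlpp1 and 0 of the other 4. The number of scored fragments per library was most like that of Crebzf for St7, with a Spearman correlation of 0.48 over the 15 libraries, followed by Rnf139, Ak4, Rab2a and Brms1l with 0.29 to 0.23. Over the 14 libraries without Reactivated library 2, the same 5 promoters led, Rnf139 first, with 0.57 to 0.49. Libraries differ in their number of listings, which all promoters share, and the median over 296 promoters was -0.09 with and 0.07 without that library.

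Crebzf fragments were long. The median length was 8688 bases, against 2939 for the 33334 fragments of the table and 3668 for those on chromosome 7. It was 10704 for the 91 fragments scored in Reactivated library 2 alone, 7502 for the 48 that other libraries scored as well, and 4868 for the 24 that Reactivated library 2 did not score. The 196 fragments of Reactivated library 2 without Crebzf had a median of 3502 bases. Among promoters with 20 or more fragments the median length ran from 1262 to 5906 bases. The part of fragment length in the number of contacts was not tested.

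Of the 163 fragments, 32 were also listed with other promoters, and all 32 had the same scores in each of their listings, so their scores cannot be assigned to Crebzf or to the other promoter. That is 19.6% of the Crebzf fragments, against 7.76% of all fragments and 14.3% of those on chromosome 7. The share was 4.4% among the 91 scored in Reactivated library 2 alone, 37.5% among the 48 scored there and elsewhere, and 41.7% among the 24 scored elsewhere only. They involved 40 promoters along the chromosome, of which Ercc2, a DNA repair helicase gene, shared 3 fragments, and Arhgap33, Scaf1, Trim66 and Zfp260 shared 2 each. Outside Reactivated library 2, 21 of the 28 shared fragments and 21 of the 44 listed with Crebzf alone had a score in 2 or more libraries.

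Recurrence was lower than in the table as a whole. A score in 2 or more libraries was found for 64 of the 163 fragments, or 39.3%, against 67.3% of all listings. Without Reactivated library 2 the numbers were 42 of 72, or 58.3%, against 67.5%. Over the 8 library sets other than that of Reactivated libraries 1 and 2, 42 fragments were scored in a single set and 26 in 2 or more, of which 8 were listed with Crebzf alone. No fragment was scored in more than 9 libraries.

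**Figure D4:**
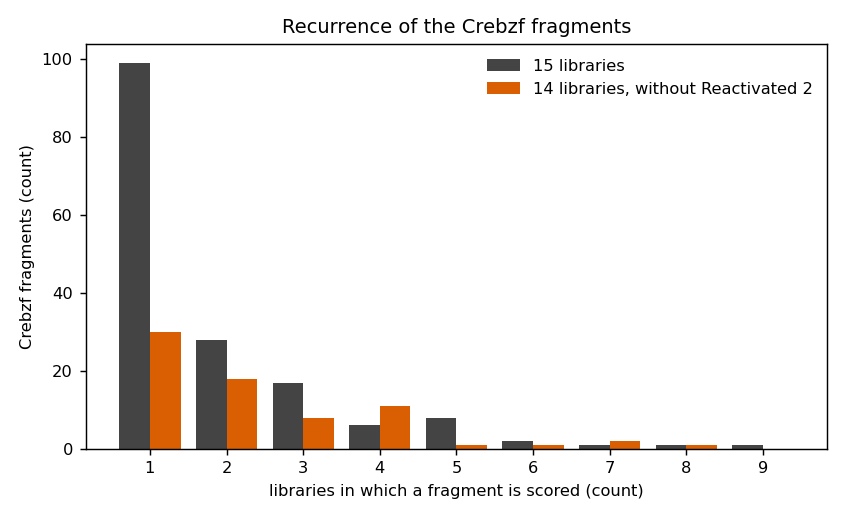
Number of Crebzf fragments (vertical axis, count) scored in 1 to 9 libraries, for all 15 libraries (dark) and for the 14 without Reactivated 2 (orange). The fragments in a single library number 99 with and 30 without Reactivated 2.

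By group, Basal libraries scored 35 different fragments, Early libraries 29, Late libraries 25 and Reactivated libraries 148, or 18 without library 2. Scores in every library of the group were found for 6 Basal fragments, 1 Early fragment, 0 Late and 0 Reactivated ones. In all 4 groups, 3 fragments were scored, and 1 without Reactivated library 2.

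The most recurrent fragments lay far from the point between Eed and Dlg2. All those scored in 6 or more libraries were also listed with other promoters, so their scores cannot be assigned to Crebzf. The fragment from 4456453 to 4467048, listed also with Ppp1r12c, was scored in 9 libraries. It had 506, 330 and 49 in the Basal libraries, 0, 51, 209 and 136 in Early, 0, 0, 230 and 154 in Late, and 0, 3, 0 and 0 in Reactivated. It was scored in every Basal library and in 3 of the 4 Early libraries, and the scores of those groups overlapped. The fragment from 52299820 to 52312036, listed also with Scaf1, had 1422, 807 and 5 in Basal, 0 in all Early libraries, 29, 0, 837 and 583 in Late, and 7, 18, 0 and 0 in Reactivated. All Basal libraries and no Early library scored it, and 1 of the 163 Crebzf fragments did this, against 0.875% of all listings. The reverse, a score in every Early and no Basal library, held for 0 Crebzf fragments and 0.0715% of all. For Late against Early, a score in every Late and no Early library held for 0.239% of all listings and in every Early and no Late library for 0.044%, and for Reactivated against Late the shares were 0.00275% for every Reactivated and no Late library and 0.311% for every Late and no Reactivated library, with 0 Crebzf fragments in each of these. The adjoining fragment from 52312039 to 52314884, listed also with Ccdc155, Ptov1 and Scaf1, had 224, 140 and 8 in Basal, 901 in Early library 2, and 85 and 108 in Reactivated libraries 3 and 4. No Late library scored it.

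The fragment from 116653648 to 116665596, listed also with the ribosomal protein gene Rpl27a, St5 and Trim66, had 13 in Basal library 3, 8, 83, 261 and 134 in the Early libraries, and 1341 and 1030 in Late libraries 3 and 4. It was the only one scored in every Early library. The fragment from 112586475 to 112587444, listed also with Fam160a2, was scored in 6 libraries at 5 to 21. In 5 libraries each, 8 fragments were scored. The 5 with the highest summed scores, at 13566135, 28197424, 35552075, 52609610 and 147090115 (starts), complete the 10 named, and those at 28041206, 80655038 and 112623390 tied with them in number of libraries. Of the 8, those at 13566135, 112623390 and 147090115 were listed with Crebzf alone. The fragment at 13566135 had its high scores, 1224 and 771, in Late libraries 3 and 4, and 147090115 had 812 and 425 in Basal libraries 1 and 2.

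The 5 fragments with the highest single scores had them in Basal library 1 or Late library 3, and 2 of these, at 52299820 and 116653648, are among the recurrent ones. The fragment from 87223371 to 87244928, listed with Crebzf alone, had 1852 and 1091 in Basal libraries 1 and 2, 3 in Reactivated library 2 and no other score. The fragment from 51150251 to 51154798, listed also with Klk4 and Zfp819, had 1664 and 1002 in the same Basal libraries. The fragment from 96611711 to 96618594, listed also with Eed, had 1269 and 779 in Basal libraries 1 and 2 and 509 and 533 in Reactivated libraries 3 and 4. It was the strongest Crebzf fragment of Reactivated libraries 3 and 4, with 47.7% and 38.9% of their Crebzf score sum. Its midpoint is the median position of the Eed fragments, 96.6 Mb. That it lay 0.498 Mb below the point between Eed and Dlg2 thus follows from how the point was set. The 5 fragments farthest from the median position of all Crebzf fragments lay between 3619108 and 5004796, and all had scores of 3 to 5 in Reactivated library 2. The fragment at 4456453 (start), the most recurrent, is among them. Of the other 4, the one at 3619108 also had 17 in Basal library 3, and none had a further score.

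Early against Basal, Late against Early and Reactivated against Late follow the stages that the study's design names, encoding, consolidation and recall. A score is a level and was compared on the asinh scale, with 0 for no score. By limma over all 36353 listings, 0 of the 163 Crebzf listings passed a Benjamini-Hochberg adjusted p of 0.05 in any of the 3 comparisons, and 0% of all listings did. The lowest limma adjusted p among the Crebzf listings was 0.185 in Early against Basal, 0.276 in Late against Early and 0.141 in Reactivated against Late. At an unadjusted p under 0.05 there were 9 Crebzf listings in Early against Basal, all lower in Early, which is 5.52% of them against 10.6% of all listings, 4.4% higher and 6.24% lower in Early. There were 3 in Late against Early, all higher in Late, or 1.84% against 15.1% of all listings, 9.52% higher and 5.62% lower in Late. In Reactivated against Late there were 5, 2 higher and 3 lower in Reactivated, or 3.07% against 26.2% of all, 16.2% higher and 9.99% lower. These shares include the 91 fragments scored in Reactivated library 2 alone, which have no score in any Basal, Early or Late library. Without Reactivated library 2, 72 Crebzf listings were fitted, and an unadjusted p under 0.05 was found for 11 of them, or 15.3%, in Early against Basal (10.9% of all listings), 6, or 8.33%, in Late against Early (15% of all) and 9, or 12.5%, in Reactivated against Late (29.6% of all). The order of Crebzf and all listings in Early against Basal thus turned with that library. The median difference of the Crebzf listings in Reactivated against Late was 0.45 on the asinh scale with Reactivated library 2, with 131 higher and 23 lower, and 0 without it, with 15 higher and 24 lower. It adds nothing to the excess of that library by which the gene was chosen.

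Single libraries changed these counts. Without Basal library 3, limma called 5 of the 161 Crebzf listings fitted lower in Early, and 4.08% of all listings. These 5, with starts at 51150251, 87223371, 96611711, 107308961 and 148105390, had scores of 1664, 1852, 1269, 331 and 137 in Basal library 1 and of 1002, 1091, 779, 189 and 96 in Basal library 2. That setting leaves Basal libraries 1 and 2, a single set. Without Reactivated libraries 1 and 2, 7 of the 68 Crebzf listings fitted, or 10.3%, were called higher in Reactivated, and 25.3% of all listings were called, and again a single set was left. The largest change among the 7 was at 96611711, 6.95 ± 1.74 (standard error) on the asinh scale, at a limma adjusted p of 0.0118. Without Reactivated library 2, 1 of 72 listings passed, or 1.39%, with 13.5% of all. It lies from 108074961 to 108076609 with scores of 148 and 233 in Reactivated libraries 3 and 4 and no other score, and it also passed without Reactivated library 1.

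The level of the Crebzf scores relative to the rest of a library was taken as the mean asinh score of the scored Crebzf fragments minus that of all other scored listings. In Reactivated library 2 this mean runs over the 139 fragments of the excess, 97 of which had a score of 3 or 4. The 8 fragments of Reactivated library 1 are among the 139. The comparison of Reactivated with Late is thus not independent of the excess by which the gene was chosen. The relative level was -2.33, -2.38, -1.31 and -1.44 in Reactivated libraries 1 to 4, and -0.01, -0.24, 0.75 and 0.22 in Late libraries 1 to 4. All 4 Reactivated libraries lay below all 4 Late libraries. The means were -1.86 ± 0.57 in Reactivated and 0.18 ± 0.42 in Late (SD, n = 4 each), a difference of -2.05. The permutation test (exact, two-sided) gave p = 0.0286, the smallest this design allows, and 0.171 after adjustment over 6 tests. The difference did not pass after adjustment. With the 2 sets of each group as means it was the same, at an exact permutation p of 0.333, below which such a design cannot go. Reactivated libraries 1 and 2 had the fewest listings, and the part of library size was not tested. Without them the difference was -1.56, at an exact permutation p of 0.0667, again the smallest possible. That leaves Reactivated libraries 3 and 4, a single set, so this p counts alike libraries as separate ones.

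Early libraries had 0.04, -1.05, -0.13 and -0.22 and Basal libraries 0.14, 0.27 and -0.32, so the groups overlapped. The means were -0.34 ± 0.48 in Early (SD, n = 4) and 0.03 ± 0.31 in Basal (SD, n = 3), with a difference of -0.37 (exact permutation p 0.343, adjusted 0.514). Late exceeded Early by 0.52, with an exact permutation p of 0.2 and an adjusted p of 0.457. Over all libraries, the Crebzf scores were below the rest in 10 of 15.

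**Figure D5:**
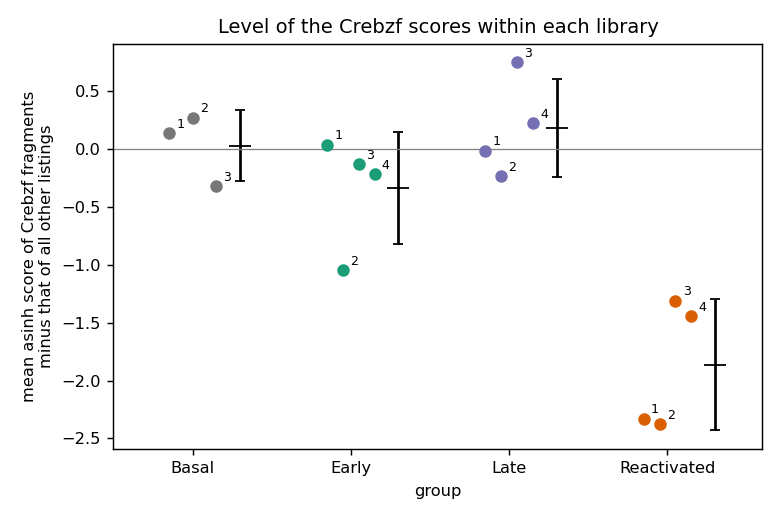
Mean asinh score of the scored Crebzf fragments minus that of all other scored listings (vertical axis) by group, with a numbered point per library and the mean ± SD in black. The 4 Reactivated libraries lie between -2.38 and -1.31, below the other groups, and those of Late between -0.24 and 0.75.

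How far the scored fragments lay from their overall median position did not separate the groups. That position is the median over all 163 fragments, of which Reactivated library 2 scored 139. The distances in every library, and the tests on them, are thus not independent of the excess in that library. The median distance was 28.5 ± 15.1 Mb in Reactivated and 43.3 ± 19.0 Mb in Late (SD, n = 4 each), a difference of -14.8 Mb with an exact permutation p of 0.229 (adjusted 0.457), and of -27.5 Mb without Reactivated libraries 1 and 2. It was 40.9 ± 3.13 Mb in Early (SD, n = 4) and 43.3 ± 10.7 Mb in Basal (SD, n = 3), with an exact permutation p of 0.83 (adjusted 0.83). Late and Early differed by 2.39 Mb, with an exact permutation p of 0.714 (adjusted 0.83). In every library but Reactivated 3 and 4 the median distance was over 25 Mb.

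Other basic leucine zipper genes had fewer listed fragments. Of 54 genes of the family, 23 had a promoter in the table, with 3 to 31 listed fragments and a median of 7. The highest was Hlf, a circadian factor gene, with 31, followed by Bach2 with 19, Junb with 13 and Nfil3 with 12. Creb1, which encodes CREB, had 9 fragments at a median distance of 0.517 Mb from their median position. None of the 23 had a fragment in Reactivated library 2, where 5.1% of the 4428 promoters other than Crebzf had one, so little can be read from this count. Of their 199 listings, 0 passed limma in the 3 comparisons, and 13.1%, 18.1% and 29.1% had an unadjusted p under 0.05 in Early against Basal, Late against Early and Reactivated against Late, near the 10.6%, 15.1% and 26.2% of all listings. On a list of 5 genes tied to Crebzf, 2 had a promoter in the table. Atf4, whose protein Crebzf binds, had 3 listed fragments, and Insig2, a regulator of sterol synthesis known as a gene that Crebzf represses, had 4.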

How the data were processed

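Promoter-capture Hi-C was done on sorted nuclei with HindIII, and captured with 10000 RNA baits for 5000 promoters, per the labels' protocols. Each deposited value is an interaction score that the authors gave a fragment in a library, per the file headers, on build mm9, per the submitters' processing notes. For the program, aligner, filters and normalization behind the score, nothing was given in the sources used here. Read depth is unknown, so precision is set by how many libraries there are. Sample titles gave the groups.

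Scores of the 163 listings named Crebzf were used. Members and lists were chosen with earlier results of these data known. Fragment scores were tested with limma 3.58.1 (R 4.3.3, statmod 1.5.0) on asinh(score), with robust empirical Bayes and a variance trend, over all listings. Relative score and distance were tested by exact permutation over libraries with at least 3 scored fragments. The limma step was tested on simulated data. Named fragments were the 10 in the most libraries (ties by summed score), the 5 with the highest score and the 5 farthest from the median position; named promoters were the 5 next in number, the 5 most alike, those with most fragments in Reactivated library 2, those sharing fragments, and the family list. Near fragments, fragments called when libraries were left out, and the promoters with the next widest spread were chosen with their values known. Within a group, libraries sharing at least 40% of all fragments of the smaller library formed a set. Alternatives were log2(score + 1), listings in 2 or more libraries, quantile normalization, no trend, sets as means, a score of 5 or more, the replicate number as a block and leaving out libraries. Descriptive values and permutation tests used numpy 2.4.6 and pandas 2.3.3 in Python 3.11.15, Spearman correlations scipy 1.17.1, and plots matplotlib 3.10.9. The reference was RefSeq GRCm38.p6, used for gene order and the promoter window.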

Additional observations from a re-analysis of the deposited data

Results flagged for a closer look

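Reactivated library 2 stood apart from the other 3 Reactivated libraries with 139 scored Crebzf fragments, against 8 to 10, and with 42 fragments at a score of 5 or more, against 5 to 9. In Early, library 3 stood apart with a median Crebzf score of 104, against 48 to 51 in the other 3 libraries, and in Late, library 3 did with a median of 533.5, against 17 to 89. The counts of Reactivated library 2 belong to the excess by which the gene was chosen, so their flags are a description and no chance rate applies. For the median scores, chance flags about 1 in 20 groups of this size for a single measure and independent libraries. Several measures were looked at and some libraries of a group are alike, so the rate that applies here is not known.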

How the results depend on the processing

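The counts of fragments depended on Reactivated library 2 and on the score required. The number of listed fragments was 92 at a score of 5 or more, 68 without Reactivated libraries 1 and 2, and 72 to 163 with a single library left out. Fragments in 2 or more libraries were 38 when listed with Crebzf alone, 40 without Reactivated libraries 1 and 2, and 42 to 64 with a single library left out. Those in Reactivated library 2 alone were 24 at a score of 5 or more. Those in all 4 groups were 1 at a score of 5 or more, 0 when listed with Crebzf alone, 0 without Reactivated libraries 1 and 2, and 1 to 3 with a single library left out.

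By limma, the number of called Crebzf listings was 0 in Late against Early under all 22 alternatives, 0 to 5 in Early against Basal and 0 to 1 in Reactivated against Late with a single library left out, and 7 in the last without Reactivated libraries 1 and 2. The cause was not tested. The relative score kept its direction and did not pass in any of the 3 comparisons under the alternatives run. That it did not pass says little. The smallest exact permutation p, 0.0286, becomes 0.171 after adjustment over 6 tests when a single comparison reaches it. The distance turned direction in Early against Basal with mean distances (1.89 Mb), and ran from -5.75 to 3.79 Mb with a library left out. It turned in Late against Early with mean distances (-3.02 Mb), from the point between Eed and Dlg2 (-7.05 Mb) and for fragments listed with Crebzf alone (-12.4 Mb), the last pair chosen after seeing the data, and ran from -3.20 to 8.22 Mb with a library left out. Replicate numbers did not pair the libraries: same-numbered libraries of compared groups had correlations of deviations from -0.0181 to 0.0354. With the replicate number as a block, 0 Crebzf listings passed in each comparison, and the relative score difference was -0.41, 0.52 and -2.05 (exact permutation p 0.75, 0.25 and 0.125). The number and overlap of the libraries limit all of these values.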
